A study of Mus musculus with 4 samples.

Results

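The 9 glycogen genes described here encode the enzymes that build and break down glycogen, and one protein that binds it. They are Gys1, Gys2, Gyg, Gbe1, Pygl, Pygb, Pygm, Ugp2 and Stbd1, chosen by symbol, and each matched 1 row of a table of 46603 gene IDs. None of the 9 passed the threshold between the groups compared. The cells were mouse embryonic stem cells of 2 genotypes with 2 biological replicates each, Gsk3a-/-;Gsk3b-/- (double knockout) and wild type (Gsk3a+/+;Gsk3b+/+). Both were grown in serum and leukaemia inhibitory factor (LIF) on gelatin over irradiated mouse embryonic fibroblasts, so each library can hold feeder RNA, and polyadenylated RNA was sequenced from stranded libraries. The sources used here do not say how the alleles were made or whether a line is 1 clone, and the labels and the design text give different embryonic ages.

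Glycogen is a branched store of glucose. UDP-glucose, made by UGP2, is the sugar donor; glycogenin (GYG) starts a chain on itself, glycogen synthase (GYS1, or GYS2 in liver) lengthens it, and the branching enzyme GBE1 adds branches. Glycogen phosphorylase, encoded by Pygm (muscle), Pygl (liver) and Pygb (brain), releases glucose 1-phosphate. Glycogen synthase kinase 3 takes its name from the phosphorylation of glycogen synthase, which lowers that enzyme's activity. That control acts on the protein, and the data here are transcript levels only.

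The deposited data are a comparison of a group B with a group A, and nothing in the sources used here says which genotype is which, so differences are stated for group B relative to group A with the genotypes left unnamed. Whole read counts of the 2 libraries behind each group mean were recovered and are called B1, B2, A1 and A2; these numbers are not the labels' replicate numbers. Totals were 146326307 counts in B1, 112655210 in B2, 143182371 in A1 and 134463318 in A2. Normalized counts (read counts divided by a size factor for library depth) of the targeted gene Gsk3a were 1697 and 1347 in group B, against 6353 and 7104 in group A, and those of Gsk3b were 5051 and 5002 in group B, against 5438 and 6285 in group A. The authors' deposited table gives log2 fold changes of -2.14 for Gsk3a (adjusted p 4.9e-24) and -0.22 for Gsk3b (adjusted p 0.984). All 2601 table genes on chromosome X and all 37 on the mitochondrial chromosome are listed at 0, Hprt and Pgk1 among them, so no level can be read for X-linked genes of the pathway.

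Marker lists describe the other cells that these libraries could hold. All 7 pluripotency markers were abundant, with summed normalized counts of 654695 and 671917 in group B, against 716962 and 765657 in group A, and 5 of the 7 were lower in both B libraries. The 8 feeder fibroblast markers summed to 114186 in B1 and 343786 in B2, against 224282 in A1 and 165918 in A2, with 0 of 8 separated between the groups. Most of each sum came from Fn1, with 89803 in B1 and 202094 in B2, against 126836 in A1 and 120355 in A2. Libraries of a group differed more for Col1a1, with 8757 in B1 and 55013 in B2, against 31482 in A1 and 17177 in A2. The 8 endoderm markers summed to 27038 in B1 and 11001 in B2, against 2896 in A1 and 1928 in A2; 5 of 7 with a mean of at least 10 were higher in both B libraries, and 1 was lower in both, Ttr, with 3.67 and 3.55 in group B, against 26.7 and 12.9 in group A. None of the endoderm markers was called by the authors' deposited table, and limma called 2 higher. The 8 macrophage markers summed to 3439 and 3756 in group B, against 3274 and 2924 in group A. Of these 8, 6 were higher in both B libraries, and the other 2, Cd68 and Itgam, were lower in both. The authors' deposited table called 3 of the 8 higher, and limma called 1 higher. For comparison, of 20465 genes whose mean reached 10, 26.4% were higher in both B libraries and 26.0% lower in both. The authors' deposited table called 1.54% of 30237 tested genes higher, and limma called 2.01% of the 20465 in either direction. Among the 8 glycogen genes whose mean reached 10, Ugp2, Pygb and Stbd1 were also higher in both B libraries, and Gys1 was lower in both. Gys2, with a mean below 10, was higher in both, at 10.1 and 9.46 in group B, against 2.76 and 1.98 in group A. The part of other cells in the values of these genes was not tested. Bulk RNA cannot tell fewer cells of a type from less RNA per cell.

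The 3 phosphorylase genes are close relatives whose levels per kilobase differed widely, and sequence from the 250 bases before their RefSeq starts is shown because these windows also differed in CpG content. Sequences are from RefSeq (GRCm38.p6, the assembly of mm10), written 5′ to 3′ on the strand of the gene, with each CG dinucleotide in capitals. RefSeq and GENCODE starts differ: the RefSeq start of Pygb lies 61 bases and that of Pygm 9 bases inside the first GENCODE exon, and these exon bases are not printed, which leaves 189 and 241 bases. The RefSeq start of Pygl, base 70227683, is also the edge of a GENCODE exon but lies 3805 bases downstream of the outermost GENCODE start, so its window falls within the GENCODE gene, outside its exons. The printed stretches are chr2:150786546-150786734 (plus strand) for Pygb, chr12:70227684-70227933 (minus strand) for Pygl and chr19:6384158-6384398 (plus strand) for Pygm.
Pygb: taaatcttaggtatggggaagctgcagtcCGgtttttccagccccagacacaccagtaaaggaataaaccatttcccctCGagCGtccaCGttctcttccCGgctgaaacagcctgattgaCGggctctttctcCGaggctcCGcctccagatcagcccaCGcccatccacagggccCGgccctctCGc
Pygl: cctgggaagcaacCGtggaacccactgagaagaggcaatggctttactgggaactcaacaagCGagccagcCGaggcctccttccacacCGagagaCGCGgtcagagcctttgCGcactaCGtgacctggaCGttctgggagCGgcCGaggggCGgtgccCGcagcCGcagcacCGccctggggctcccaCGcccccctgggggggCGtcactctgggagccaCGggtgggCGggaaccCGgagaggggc
Pygm: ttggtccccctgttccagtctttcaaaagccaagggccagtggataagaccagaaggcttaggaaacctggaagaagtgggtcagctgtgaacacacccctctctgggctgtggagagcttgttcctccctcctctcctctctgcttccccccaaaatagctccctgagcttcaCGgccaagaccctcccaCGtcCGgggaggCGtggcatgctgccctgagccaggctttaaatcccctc
The full windows of 250 bases hold 17 CG dinucleotides for Pygb (11 of them in the printed stretch), 20 for Pygl and 4 for Pygm. Across 32851 RefSeq promoter windows of this length the median was 6, with quartiles of 2 and 16, so Pygm lay at percentile 37.8, Pygb at 76.5 and Pygl at 82.1. Of the 9 genes, 8 had at least 1 window (Gys2 had no entry), and the others held 9 for Gbe1, 11 for Gys1, 13 for Gyg, 24 for Stbd1, and 21 and 23 for the pair of Ugp2 starts. Searched on both strands over the full windows of 300 bases, the E-box CACGTG was found in 1 of the 9 windows of these genes, that of Gyg, against 7.15% of all windows, and the letters CTTTGAT, a core of TCF/LEF motifs, in 0 of 9, against 3.73%. For Gyg 201 of the 250 bases before the RefSeq start lie in GENCODE exons, with 2 of its 13 CG dinucleotides outside them. Its E-box may therefore lie in exon sequence. A match of letters describes the window and shows no binding.

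Transcript levels of the 9 genes spanned a wide range, which is compared per kilobase of annotated exon. Ugp2 and Gys1 were highest, with Ugp2 at 1630 and 1529 normalized counts per kilobase in group B, against 1278 and 1251 in group A. Gys1 stood at 1136 and 1236 in group B, against 1312 and 1517 in group A. Over the 4 libraries the ranges of this pair overlapped, and so did those of Gbe1 and Stbd1 and those of Stbd1 and Pygl. The ranges of all other neighbours in the order did not overlap. Pygb followed at a mean per kilobase of 725 in group B and 514 in group A, and Gyg at 338 in group B and 373 in group A. Pygm had 191 in group B and 169 in group A. The lowest of the well-measured genes were Gbe1, with 87.3 in group B and 84.0 in group A, Stbd1, with 99.9 in group B and 51.6 in group A, and Pygl, with 79.2 in group B and 59.4 in group A. Gys2 was last, at 3.68 per kilobase in group B and 0.892 in group A. The median of 15364 protein-coding genes whose mean reached 10 was 378 normalized counts per kilobase, so Ugp2, Gys1 and Pygb lay above it, at percentiles 75.3, 73.5 and 59.0, and Gyg near it at percentile 48.9.

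**Figure D1:**
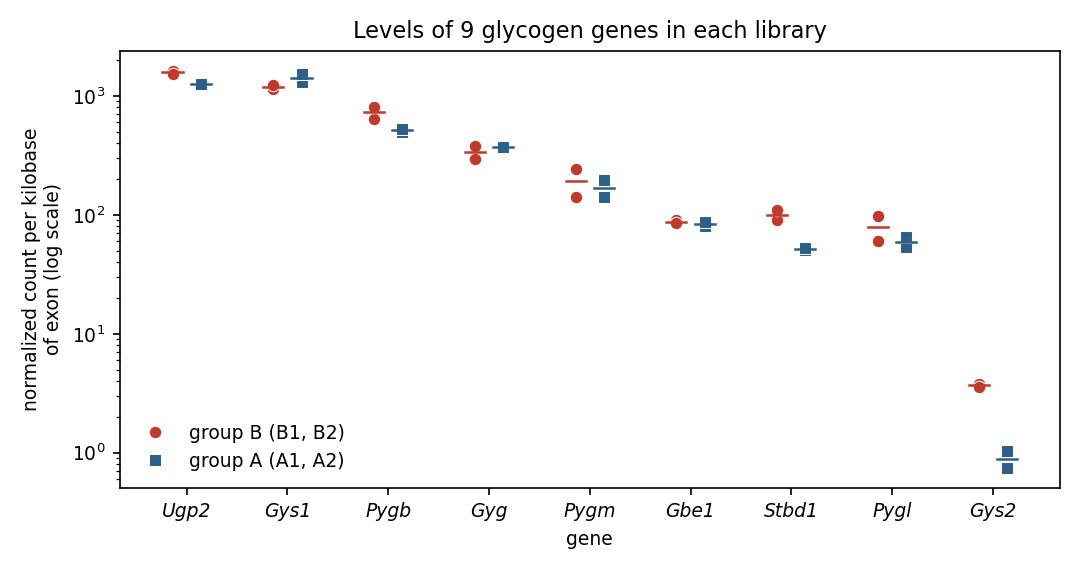
Normalized counts per kilobase of exon (log axis) of the 9 glycogen genes, ordered by their mean over all libraries; circles are B1 and B2, squares A1 and A2, and short lines the group means. Ugp2 and Gys1 lie above 1000 in every library and Gys2 below 4 in every library.

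None of the 9 genes passed an adjusted p of 0.05 in the authors' deposited table, against 3.46% of 30237 tested genes (1.54% higher and 1.92% lower in group B). The authors' deposited table gives 2 of the 9, Stbd1 and Pygb, an unadjusted p under 0.05, against 10.5% of all tested genes. Limma on the recovered counts, with Benjamini-Hochberg adjustment, also called 0 of the 8 members whose mean reached 10, against 2.01% of 20465 genes, and 3 of the 8 (Stbd1, Pygb and Ugp2) had an unadjusted p under 0.05, against 20.7%. Both B libraries lay above both A libraries for 3 of these 8 and below them for 1, while groups did not overlap in 52.5% of genes with such a mean (26.4% above and 26.0% below). The median log2 fold change of the 8 was 0.25 in the authors' deposited table, with 6 above 0 and 2 below, against 0.01 over 20465 genes. With 2 libraries a group a missed threshold does not show that levels were equal, so the intervals of the differences are given with each gene.

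Ugp2 (ENSMUSG00000001891, chromosome 11, 21321138 to 21371201, mm10, minus strand) makes UDP-glucose. Normalized counts of Ugp2 were 5001 in B1 and 4692 in B2, against 3922 in A1 and 3839 in A2. The pairs were tight and did not overlap, with both B libraries higher. For Ugp2 the authors' deposited table holds a log2 fold change of 0.32 (adjusted p 0.611), and limma gave 0.32 (95% interval 0.047 to 0.59, adjusted p = 0.185). Its exons share 78 bases with Gm12043, an opposite-strand transcript with a mean of 9.05 in group B and 3.89 in group A.

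Gyg (ENSMUSG00000019528, chromosome 3, 20122084 to 20155317, minus strand), the primer of new chains, had normalized counts of 688 in B1 and 896 in B2, against 878 in A1 and 871 in A2. The A pair fell inside the range of the B pair. The log2 fold change of Gyg in the authors' deposited table is -0.14, adjusted p 1, and the limma interval ran from -0.63 to 0.32. Without B1 the sign of the limma difference turned, to 0.035.

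Gys1 (ENSMUSG00000003865, chromosome 7, 45434844 to 45456619, plus strand), the glycogen synthase of muscle and most other tissues, was the member with the most reads. Its normalized counts were 5442 in B1 and 5920 in B2, against 6283 in A1 and 7263 in A2. Both B libraries lay below both A libraries, and Gys1 was the only one of the 8 filtered members with that order. Its log2 fold change is -0.25 (adjusted p 0.844) by the authors' deposited table. Limma gave -0.25 (95% interval -0.55 to 0.051, adjusted p = 0.318), so group B levels between 0.681 and 1.04 times those of group A lie within the interval. Of the Gys1 exon bases 310, or 6.47%, also lie in exons of the abundant gene Ruvbl2 on the opposite strand. Means of Ruvbl2 were 50688 in group B and 53135 in group A. Whether counting used strand is not given in the sources used here. If it did not, Ruvbl2 reads from the shared bases could affect Gys1 counts by more than 6.47%. The Gys1 level per kilobase and the synthase sums carry the same uncertainty.

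Gys2 (ENSMUSG00000030244, chromosome 6, 142422613 to 142473109, minus strand), the liver form, was nearly absent. Read counts of Gys2 were 11 in B1 and 8 in B2, against 3 in A1 and 2 in A2. The ratio of normalized counts was 4.11 with an exact 95% counting interval of 1.49 to 14.1, which covers counting error only, and the adjusted p in the authors' deposited table is 0.976. Gys1 gave 99.8% of synthase counts in group B and 99.97% in group A. Of the hepatocyte markers, Alb had normalized counts of 0 and 2.36 in group B, against 2.76 and 2.97 in group A. The 7 hepatocyte markers, of which only Hnf4a and Cyp2e1 had a mean of at least 10, summed to 1548 and 1441 in group B, against 1853 and 1463 in group A, with 0 called.

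Gbe1 (ENSMUSG00000022707, chromosome 16, 70313949 to 70569716, plus strand), the branching enzyme, differed least. It had normalized counts of 481 in B1 and 453 in B2, against 435 in A1 and 465 in A2, with overlapping groups. Its log2 fold change is 0.05 in the authors' deposited table (adjusted p 1), and the limma interval was -0.40 to 0.51, or 0.758 to 1.42 times the level of group A.

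**Figure D2:**
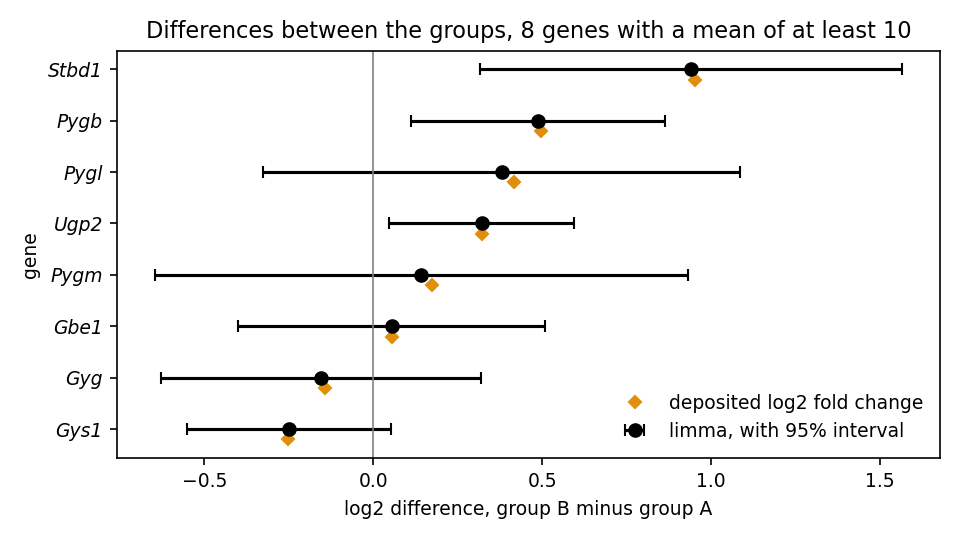
Log2 difference of group B minus group A for the 8 genes whose mean reached 10: black points with bars are limma estimates with 95% intervals, and orange diamonds the authors' deposited fold changes. Intervals of Stbd1, Pygb and Ugp2 lie above 0 before any adjustment over genes, and none of the 8 passed after it.

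Pygb (ENSMUSG00000033059, chromosome 2, 150786735 to 150831758, plus strand), the phosphorylase of brain, was the main phosphorylase transcript. Normalized counts of Pygb were 3095 in B1 and 3877 in B2, against 2391 in A1 and 2552 in A2. Both B libraries were higher than both A libraries, and the B pair was farther apart than the A pair. By the authors' deposited table its log2 fold change is 0.50 with an unadjusted p of 0.0145 and an adjusted p of 0.223. Limma gave 0.49 (SE 0.15, 95% interval 0.11 to 0.86, adjusted p = 0.157).

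Pygl (ENSMUSG00000021069, chromosome 12, 70190811 to 70231488, minus strand), the liver phosphorylase, had normalized counts of 416 in B1 and 676 in B2, against 368 in A1 and 451 in A2. Library B1 lay between the A libraries and B2 above them. The authors' deposited table gives Pygl a log2 fold change of 0.42 (adjusted p 1), with a limma interval of -0.33 to 1.08. The limma difference of 0.38 depended on the B libraries, at 0.030 without B2 and 0.73 without B1.

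Pygm (ENSMUSG00000032648, chromosome 19, 6384399 to 6398459, plus strand), the muscle phosphorylase, had normalized counts of 451 in B1 and 776 in B2, against 452 in A1 and 635 in A2. The groups overlapped almost fully, and libraries within a group differed more than the group means. The log2 fold change of Pygm is 0.17 in the authors' deposited table (adjusted p 1), and the limma interval was -0.65 to 0.93; the limma difference was -0.10 without A1 and -0.25 without B2. Of 8 striated muscle markers 0 were called higher and 1 lower in the authors' deposited table, Actn3, with normalized counts of 435 and 521 in group B, against 1876 and 2493 in group A. The list summed to 9825 in B1 and 15311 in B2, against 13882 in A1 and 12602 in A2, mostly from Mylpf. Of the 6 with a mean of at least 10, log2 fold changes were above 0 for 3 (Mylpf, Acta1 and Tnnt3) and below 0 for 3 (Actn3, Ckm and Myh4).

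Pygl and Pygm were higher in B2 than in B1 and higher in A2 than in A1. Pygb, Gys1 and Stbd1 had the same order, so it was not particular to that pair. Summed feeder fibroblast markers, as given above, were 114186 in B1 and 343786 in B2, against 224282 in A1 and 165918 in A2. The 7 brain markers, of interest for Pygb, summed to 418 and 523 in group B, against 524 and 541 in group A, with 0 called. The part of these cells in the phosphorylase values was not tested.

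Counted per kilobase, Pygb gave 76.2% of phosphorylase transcript in B1 and 70.4% in B2, against 71.9% in A1 and 66.9% in A2. Pygm gave 16.6% and 21.0% in group B, against 20.3% and 24.9% in group A, and Pygl 7.15% and 8.56% in group B, against 7.73% and 8.24% in group A. The shares overlapped between the groups for all 3 genes (exact two-sided permutation p of 0.667 for Pygb and Pygm and 1 for Pygl; 2 against 2 libraries cannot go below 0.33). The longest identical stretch between annotated transcripts was 62 bases for Pygb and Pygm and 29 bases for Pygb and Pygl, for Pygl and Pygm and for Gys1 and Gys2, so short reads in such stretches could be assigned to either gene.

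The summed phosphorylase level per kilobase over the summed synthase level, a ratio formed after the values were seen, was 0.740 in B1 and 0.924 in B2, against 0.527 in A1 and 0.523 in A2. It averaged 0.832 ± 0.130 in group B and 0.525 ± 0.00263 in group A (SD, n = 2 each; exact two-sided permutation p = 0.33, the smallest this design allows). On normalized counts without a length the ratios were 0.727 and 0.899 in group B, against 0.511 and 0.501 in group A. The groups did not overlap on either scale. Summed phosphorylase counts were already higher in group B, at 3962 and 5329, against 3212 and 3638 in group A. Summed synthase counts were already lower, at 5452 and 5929 in group B, against 6285 and 7265 in group A. Their ratio therefore had to separate, and its separation adds nothing to that of the sums. The 52.5% of genes with groups that did not overlap refers to levels of single genes and is no background for it.

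**Figure D3:**
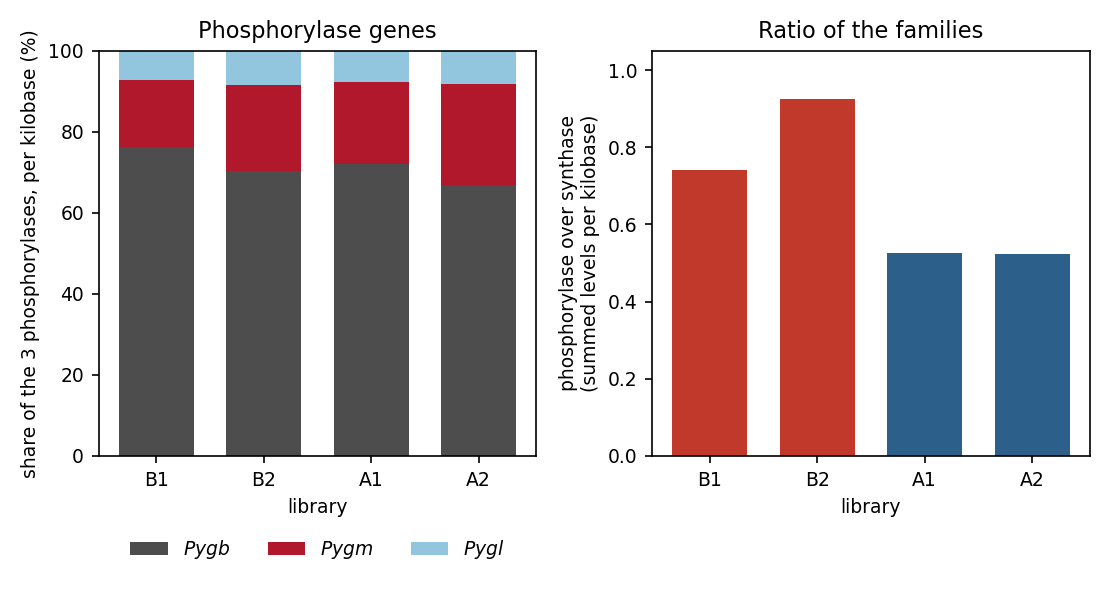
Left, share of the 3 phosphorylase genes in each library, in percent of their summed normalized counts per kilobase; right, summed phosphorylase over summed synthase level per kilobase (red, group B; blue, group A). Pygb is the largest share in all 4 libraries, and the ratio is 0.740 and 0.924 in group B, against 0.527 and 0.523 in group A.

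Stbd1 (ENSMUSG00000047963, chromosome 5, 92603041 to 92606579, plus strand) binds glycogen and anchors it to membranes, and is studied as a receptor for the delivery of glycogen to lysosomes. Its normalized counts were 199 in B1 and 245 in B2, against 111 in A1 and 118 in A2. Both B libraries were well above both A libraries, and the gap between the groups was wider than either pair. The fold change of Stbd1 in the authors' deposited table is 1.94, or 0.95 on the log2 scale, with an unadjusted p of 0.00450 and an adjusted p of 0.0996, the smallest of the 9. Limma gave 0.94 (SE 0.25, 95% interval 0.31 to 1.57, adjusted p = 0.120). Over the alternatives with all libraries the adjusted p ran from 0.0573 (authors' test, mean of at least 50) to 0.163 (limma, no filter), so Stbd1 missed the threshold in each. With 1 library left out the limma log2 differences were 0.79 to 1.09.

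The rest of the pathway was described with a pair of lists. Of 27 other glycogen enzymes and regulators 4 were listed at 0 and had no test. Of the 23 tested, 0 passed in either direction in the authors' deposited table, against 3.46% of 30237 tested genes. All 23 had a mean of at least 10, and their median log2 fold change was 0.05, with 12 above 0 and 11 below. At an unadjusted p under 0.05 there were 2, against 10.5% of tested genes. Limma with Benjamini-Hochberg adjustment called 0 of the 23, against 2.01% of 20465 genes. The most abundant members were catalytic subunits of protein phosphatase 1, which removes the phosphates from glycogen synthase. Ppp1ca had normalized counts of 47497 and 46404 in group B, against 44537 and 43467 in group A, and Ppp1cc 35899 and 34862 in group B, against 36848 and 39198 in group A. By the authors' deposited table these are log2 fold changes of 0.09 and -0.10 (adjusted p 1 for both). Of the 4 listed at 0, Phka1, Phka2 and Ppp1r3f lie on chromosome X and Ppp1r3a on chromosome 6.

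Of 14 genes of glucose entry and release 0 passed in either direction in the authors' deposited table, against 3.46% of 30237 tested genes. The median log2 fold change was 0.13 over the 11 with a mean of at least 10. At an unadjusted p under 0.05 there were 3 of the 14, against 10.5% of tested genes. Limma with Benjamini-Hochberg adjustment called 0 of the 11, against 2.01% of 20465 genes. By limma 5 of the 11 had an unadjusted p under 0.05, against 20.7%. The highest means were those of a pair of glucose transporters. Slc2a3 (GLUT3) had normalized counts of 376440 and 470507 in group B, against 262759 and 288881 in group A. Both B libraries were higher than both A libraries, and the authors' deposited table gives 0.62 on the log2 scale (adjusted p 0.0784), or 0.0450 when adjusted only over genes whose mean reached 50. Slc2a1 (GLUT1) had 35929 and 41608 in group B, against 41378 and 62629 in group A. Its groups overlapped, with -0.42 on the log2 scale by the authors' deposited table (adjusted p 0.962).

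**Figure D4:**
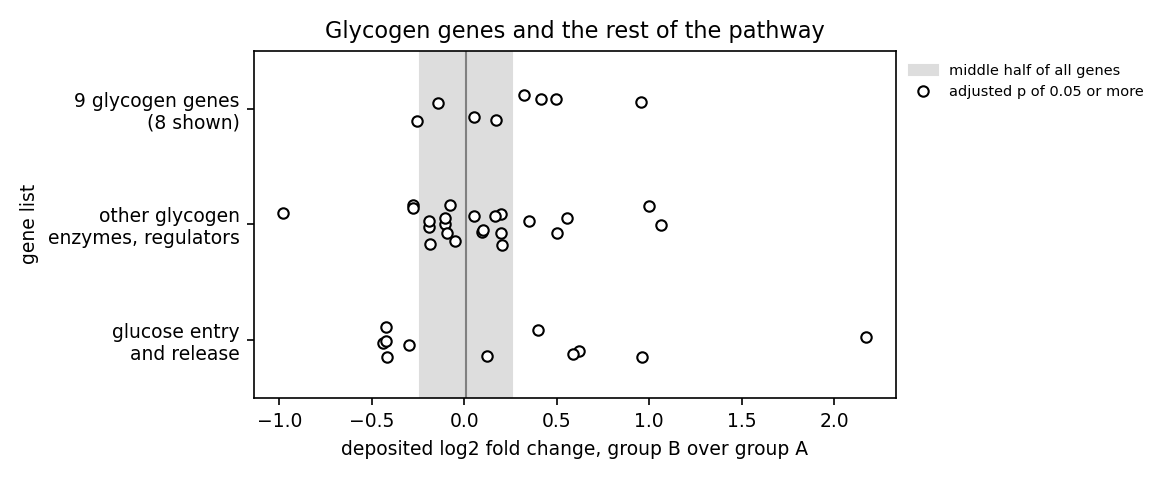
Deposited log2 fold changes of group B over group A for the glycogen genes, the other glycogen enzymes and regulators, and the genes of glucose entry and release, for genes whose mean reached 10; the grey band is the interquartile range of all such genes, from -0.24 to 0.26, and points are spread vertically for legibility. All points are open, since none of these genes passed an adjusted p of 0.05.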

How the data were processed

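Polyadenylated RNA of 4 samples, 2 per genotype, was sequenced. The submitters' processing notes name STAR, DESeq and mm10, with no versions; the sources used here do not say how reads were counted or filtered. The authors deposited 1 table with, per gene, a mean signal (read counts divided by size factors) for groups A and B, their ratio (fold change) and log2 ratio, and p-values before and after adjustment. Of 46608 deposited rows 5 were repeats and used once.

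The authors' test, at an adjusted p of 0.05, is the main test, since the deposited table has no value of a single sample. Each group mean is a sum of whole reads of 2 libraries times 2 fixed steps, and whole counts came back for every gene with reads, 28353 in group B and 28616 in group A, within a tolerance of 1e-06. For 5 genes in group B and 1700 in group A a second pair of whole counts also lay within this tolerance. The pair closest to whole numbers was used. The next best pair was at least 411 times farther from whole numbers in group B and 19.2 times in group A. Limma 3.58.1 (R 4.3.3, mean-variance trend) was run two-sided with Benjamini-Hochberg adjustment, on log2(normalized count + 1) for 20465 genes whose mean reached 10; differences on this scale understate those of low genes. The procedure was tested on simulated data. Exon lengths and positions are from GENCODE M21 (GRCm38), and levels between genes are compared per kilobase of the union of exons.

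The members and lists were chosen with earlier results of these data known, and p adjusted over a list alone is not given. Named are the 9 members, the targeted genes, and in each pathway list the genes past the threshold or else the 2 with the highest mean; the markers named were chosen after their values were seen. One gene is not reported here and is left out of the list of glucose entry and release and its counts. Alternatives covered the test, filters, adjustment, pseudocount, scaling, gene length and each library left out.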

Additional observations from a re-analysis of the deposited data

How the results depend on the processing

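No member passed under any of the 14 alternatives to the test. Of 114 member differences under these alternatives 111 kept their direction and stayed on the same side of the threshold, and the others turned sign. Some of the 114 could not change direction, since alternative filters and adjustments of the authors' test reuse the deposited fold change. In the fits without A1 or A2 the side of the threshold tells little, given the count over all genes below. Leaving out 1 library at a time in limma gave -0.35 to 0.035 for Gyg and -0.25 to 0.53 for Pygm on the log2 scale, with 0.035 for Gyg without B1 and, for Pygm, -0.10 without A1 and -0.25 without B2; the cause was not tested. For Pygl, with no change of sign, it gave 0.030 (without B2) to 0.73 (without B1). The count of other pathway and glucose genes past the threshold was 0 as reported, 1 with a mean of at least 50 (Slc2a3), 0 in limma on all libraries with every pseudocount, scaling and filter tried, and 0 to 2 with 1 library left out, with 1 without B1 (Slc2a3) and 2 without B2 (Slc2a3 and Hkdc1). The count over all genes was 1047 by the authors' deposited table, 411 by limma, 397 with a pseudocount of 0.5 and 495 with 5, 448 with total count and 570 with upper quartile scaling, 439 with a mean of at least 50 and 412 with no filter. With 1 library left out it was 0 to 1111, 0 without A1 or A2, 997 without B1 and 1111 without B2; the library left alone is assumed to vary like the other group's pair. Shares of families per kilobase in place of counts were 99.7% for Gys1 in group B and 99.9% in group A, 7.96% for Pygl in group B and 8.0% in group A, and 19.2% for Pygm in group B and 22.8% in group A. By the longest transcript in place of the union of exons Gys1 came before Ugp2 and Pygl before Gbe1 and Stbd1. No paired analysis was possible because the deposited group means carry no replicate numbers. For Gys2, with 19 reads in group B and 5 in group A, a difference is limited by counting error.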

Other observations

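Among the regulators of glycogen, targeting subunits that bring protein phosphatase 1 to glycogen differed in direction, none of them past the threshold; these genes were singled out after their values were seen. Ppp1r3b, the subunit of liver, had normalized counts of 887 in B1 and 476 in B2, against 167 in A1 and 484 in A2, so B2 lay below A2 and the groups overlapped. Ppp1r3d stood at 51.3 and 42.6 in group B, against 107 and 78.1 in group A, or -0.98 on the log2 scale by the authors' deposited table (adjusted p 0.414). Ppp1r3e had 38.5 and 33.1 in group B, against 23.0 and 12.9 in group A (the authors' deposited table gives 0.997 on the log2 scale, adjusted p 0.875).

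A gene of glucose release, again named after its values were seen, lay near the threshold. Slc37a4, which carries glucose 6-phosphate into the endoplasmic reticulum, stood at 1178 and 958 in group B, against 723 and 695 in group A (the authors' deposited table gives 0.59 on the log2 scale, adjusted p 0.100).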
